A study of Mus musculus with 7 samples.

Results

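Genes that mark T cells and natural killer (NK) cells were followed through tumors grown in nude mice, 10 in all: Cd3d, Cd3e, Cd3g, Cd4, Cd8a, Cd8b1, Ncr1, Klrb1c, Gzma and Prf1. They were chosen by symbol, as the Ensembl genes that carry these names in the GENCODE M21 annotation, and all 10 were found among the 46603 genes of the count files. The 7 libraries are bulk RNA-seq of tumor pieces, 3 from the tumor labelled NM1 KO (KO) and 4 from the tumor labelled KO+NM1. NM1, nuclear myosin 1, is an isoform of Myo1c. KO cells are mouse embryonic fibroblasts (MEFs) that lost NM1 through CRISPR/Cas9, and KO+NM1 cells are those KO cells with NM1 carrying HA and V5 tags returned by a lentivirus, taken as Neomycin-selected clones, so both tumors carry the deletion. Female Balb/c nude mice aged 16 weeks received the cells under the skin, 5 mice per group, and the sample descriptions have the tumor removed after 30 days and cut into 4 pieces. The study names both a flank and a mammary pad as the site of injection, and the methods end the experiment slightly earlier. The descriptions write of 1 tumor for each condition and the methods of tumors. Each SD, standard error (SE) and p therefore covers the spread between pieces, and the cell clone, the mouse and the place of growth cannot be told apart from the condition.

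Nude mice carry a defect of Foxn1, a transcription factor of thymic epithelium, and grow no functional thymus, so they are known for a severe lack of conventional T cells and for NK cells that develop without a thymus. A T cell reads antigen through a receptor whose variable chains signal through the CD3 proteins, with CD4 or CD8 as coreceptor. NK cells carry no such receptor and use activating and inhibitory receptors instead, and both cell types kill through granules that hold perforin and granzymes.

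KO pieces 01, 02 and 03 held transcripts of all 10 genes. KO+NM1 pieces 02, 03 and 04 held almost none of the CD3 and CD8 genes and little of the others. KO+NM1 piece 01 stood apart from the other pieces of its tumor in every one of the 10. It lay near or above the KO level for the coreceptors, at 0.278 to 0.389 of the KO mean for the CD3 chains, and above all 6 other pieces for Ncr1 and Klrb1c. The 10 genes together summed to 202, 163 and 195 CPM (read counts scaled to the size of each library) in KO pieces 01 to 03, 195 CPM in KO+NM1 piece 01, and 8.06, 5.14 and 6.33 CPM in KO+NM1 pieces 02 to 04. In bulk tissue, fewer cells of a type and less RNA per cell cannot be told apart.

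Piece 01 of KO+NM1 also stood apart in the transcripts of other cells. Its summed level of 8 B cell genes was 5620 CPM, where the other 6 pieces had 4.03 to 49.3 CPM, and that of 5 genes of lymph node stroma and high endothelial venules was 3520 CPM against 5.48 to 174 CPM. Total counts were 24088309 to 28326568 per library, and 3 counts, the limit that a count of 0 allows, corresponded to 0.0991 to 0.148 CPM. Mitochondrially encoded genes took 1.81 to 2.14% of the counts in KO pieces and 5.11, 10.5, 18.5 and 7.77% in KO+NM1 pieces 01 to 04. Myo1c was at 313, 289 and 306 CPM in KO and 438, 408, 406 and 382 CPM in KO+NM1 (log2 fold change -0.43, SE 0.13, adjusted p = 0.031 by edgeR). These gene counts take in every Myo1c isoform and the host's cells, so they are no check of the NM1 deletion. Foxn1 had 0.667, 3.3 and 0.429 CPM in KO and at most 0.0494 CPM in the KO+NM1 pieces. Its transcript level likewise tells nothing about the nude mutation.

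Values are given as CPM on library sizes scaled by TMM (edgeR's trimmed mean of M-values), and fold changes are on the log2 scale, KO minus KO+NM1, from edgeR's quasi-likelihood test fitted to 16887 genes with Benjamini-Hochberg adjustment over all of them. A call needed an adjusted p below 0.05 together with a 2-fold change or more. With all 7 pieces, 0 of the 10 genes were called in either direction, where 17.1% of all genes tested were called higher in KO and 20.3% lower. At an unadjusted p under 0.05, 2 of the 10 passed (Cd3g and Prf1), beside 9588 of all genes (56.8%), and the Wald test of DESeq2 called 3 higher in KO (Cd3g, Cd3e and Prf1), of 7 with an adjusted p, beside 16.9% of all genes with one. Without KO+NM1 piece 01, all 10 were called higher in KO, where 21.7% of all genes were called in that direction. The median log2 fold change of the 10 was 1.90 with all pieces and 5.94 without piece 01, and that of all genes tested was 0.0 in both.

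**Figure D1:**
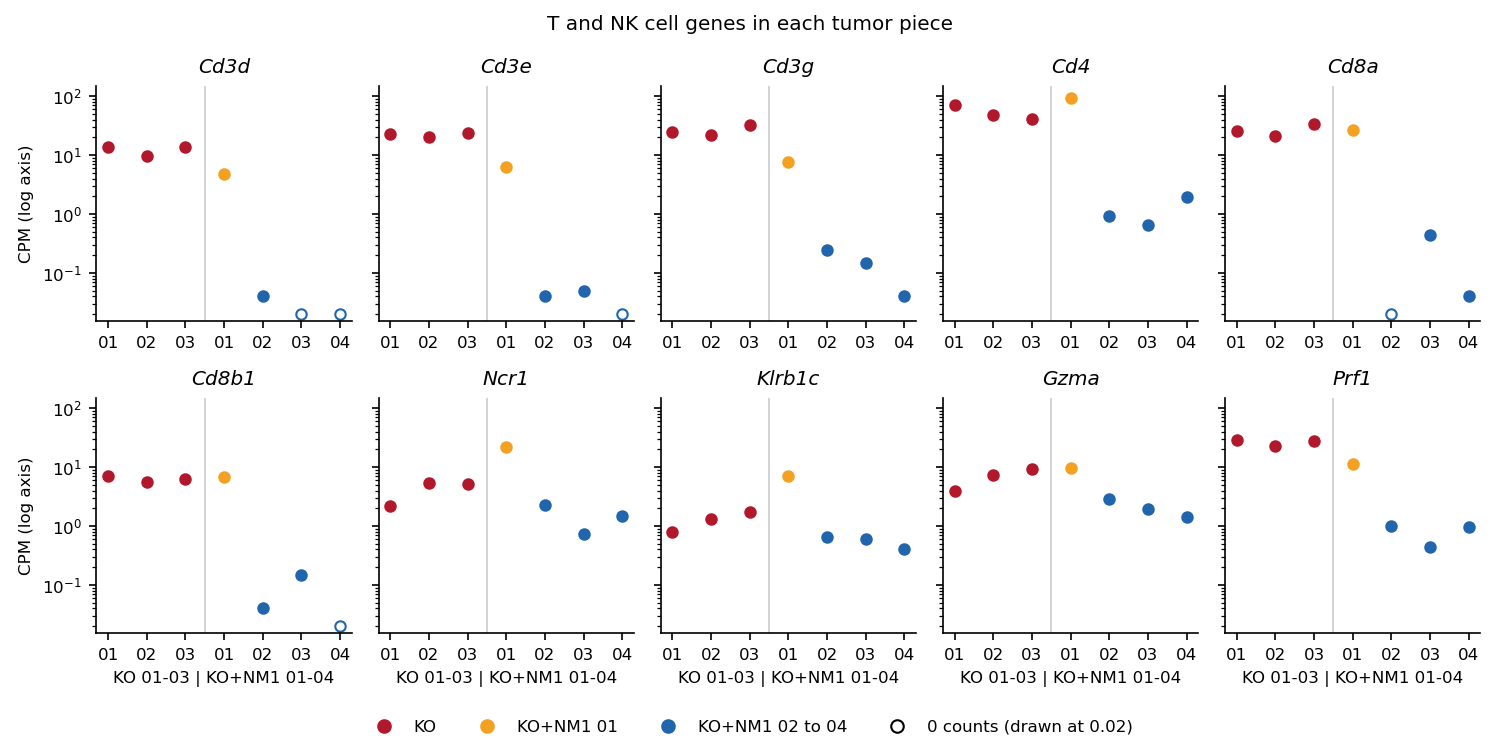
CPM (log axis) of the 10 genes in each tumor piece, with KO in red, KO+NM1 piece 01 in orange, KO+NM1 pieces 02 to 04 in blue and counts of 0 as open circles at 0.02. The orange point lies above the blue points in every panel, at the top of all 7 pieces for Cd4, Ncr1, Klrb1c and Gzma, and between red and blue for the CD3 genes and Prf1.

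The 3 CD3 chains are the invariant signalling subunits of the T cell receptor and the strictest T cell markers of the set. Their genes lie side by side on chromosome 9 (GRCm38), Cd3g (ENSMUSG00000002033) at 44969572 to 44980431 on the minus strand, Cd3d (ENSMUSG00000032094) at 44981786 to 44987339 on the plus strand and Cd3e (ENSMUSG00000032093) at 44998740 to 45009627 on the minus strand. Cd3g and Cd3d point away from each other, and their RefSeq starts are 1355 bases apart.

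Promoter sequences are shown for these 3 genes, which shared a pattern over the pieces, for Prf1, whose pattern was close to theirs, and for Ncr1, whose pattern was not. Each runs from 250 bases before to 50 bases after the RefSeq start, 5′ to 3′ on the gene's own strand, from GRCm38.p6: chr9:44981536-44981835 (plus) for Cd3d, chr9:45009562-45009861 (minus) for Cd3e, chr9:44980382-44980681 (minus) for Cd3g, chr10:61297586-61297885 (plus) for Prf1 and chr7:4337474-4337773 (plus) for Ncr1. Capitals mark the letters AGGAAG, a form of the site bound by ETS factors, and TGTGGT, the core bound by RUNX factors. Each was read on either strand, where AGGAAG reads CTTCCT and TGTGGT reads ACCACA, and other forms of the sites are not marked.
Cd3d: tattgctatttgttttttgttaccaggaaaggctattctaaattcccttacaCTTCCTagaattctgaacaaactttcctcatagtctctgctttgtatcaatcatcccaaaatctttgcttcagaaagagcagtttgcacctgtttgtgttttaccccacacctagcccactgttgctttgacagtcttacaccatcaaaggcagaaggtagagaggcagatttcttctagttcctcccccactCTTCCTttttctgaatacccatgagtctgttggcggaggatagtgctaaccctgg
Cd3e: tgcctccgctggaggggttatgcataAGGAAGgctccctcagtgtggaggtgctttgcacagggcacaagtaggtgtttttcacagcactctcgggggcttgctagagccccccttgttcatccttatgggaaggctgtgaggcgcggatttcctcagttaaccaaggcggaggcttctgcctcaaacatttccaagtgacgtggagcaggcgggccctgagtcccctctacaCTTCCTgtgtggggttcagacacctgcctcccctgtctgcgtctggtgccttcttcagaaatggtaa
Cd3g: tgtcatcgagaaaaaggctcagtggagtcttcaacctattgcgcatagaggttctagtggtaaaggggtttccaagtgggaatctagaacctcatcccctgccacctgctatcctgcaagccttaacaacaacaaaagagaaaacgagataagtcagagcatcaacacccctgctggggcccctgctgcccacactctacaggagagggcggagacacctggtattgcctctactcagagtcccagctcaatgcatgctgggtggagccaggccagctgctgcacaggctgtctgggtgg
Prf1: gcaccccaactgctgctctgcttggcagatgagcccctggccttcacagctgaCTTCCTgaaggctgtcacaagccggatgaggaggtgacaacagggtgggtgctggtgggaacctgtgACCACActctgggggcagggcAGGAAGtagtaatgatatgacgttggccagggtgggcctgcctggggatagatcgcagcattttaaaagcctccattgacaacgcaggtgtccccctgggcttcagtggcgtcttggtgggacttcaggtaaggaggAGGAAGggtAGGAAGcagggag
Ncr1: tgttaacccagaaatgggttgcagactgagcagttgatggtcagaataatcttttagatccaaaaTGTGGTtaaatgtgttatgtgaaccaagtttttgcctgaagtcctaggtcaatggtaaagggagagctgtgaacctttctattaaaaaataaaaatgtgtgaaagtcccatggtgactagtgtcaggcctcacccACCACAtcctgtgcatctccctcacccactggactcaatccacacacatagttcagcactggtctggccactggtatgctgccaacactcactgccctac

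The table of promoters held 8 of the 10 genes, all but Cd4 and Cd8b1. AGGAAG was found in 4 of the 8 (Cd3d, Cd3e, Klrb1c and Prf1) and in 35.4% of all 32817 promoters of that length. TGTGGT was found in 4 of the 8 (Ncr1, Klrb1c, Gzma and Prf1) and in 16.8% of all promoters, and TATAAA in 0 of the 8 and in 13.6%. Cd3g held none of these exact letters, and other forms of the sites were not searched. Its level followed that of Cd3d and Cd3e through the 7 pieces.

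Cd3e was at 23.1, 20.0 and 24.0 CPM in KO pieces 01 to 03, at 6.2 CPM in KO+NM1 piece 01, and at 0.0407, 0.0494 and 0 CPM in KO+NM1 pieces 02 to 04, which stand for 1, 1 and 0 reads. All 3 KO pieces lay above all 4 KO+NM1 pieces. The log2 fold change was 3.81 (SE 1.63, adjusted p = 0.104) over all pieces and 9.26 (SE 0.71, adjusted p = 6.08e-06 by edgeR) without piece 01. With so few reads in pieces 02 to 04 the fitted value depends on the prior count, and the pooled counts of KO against those 3 pieces gave a ratio of 773 with a 95% exact interval of 214 to 6390, which covers counting error only.

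Cd3d was at 13.8, 9.7 and 13.7 CPM in KO, at 4.81 CPM in KO+NM1 piece 01 and at 0.0407, 0 and 0 CPM in pieces 02 to 04. Those 3 pieces held 1 read of Cd3d between them, and the pooled ratio was 859 (154 to 34000). The fold change was 3.33 on the log2 scale with all pieces (SE 1.67, adjusted p = 0.149) and 9.23 without piece 01 (SE 1.13, adjusted p = 1.48e-05 by edgeR).

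Cd3g was at 25.1, 21.8 and 32.1 CPM in KO, at 7.66 CPM in KO+NM1 piece 01 and at 0.244, 0.148 and 0.0411 CPM in pieces 02 to 04. It too separated the groups without overlap, with a log2 fold change of 3.69 (SE 1.43, adjusted p = 0.079) that rose to 7.34 (SE 0.49, adjusted p = 1.37e-05 by edgeR) when piece 01 was left out. The pooled ratio was 183 (99.2 to 381).

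Summed, the 3 CD3 chains had 62.0, 51.4 and 69.8 CPM in KO (61.1 ± 9.22, SD, n = 3), 18.7 CPM in KO+NM1 piece 01 and 0.325, 0.198 and 0.0411 CPM in pieces 02 to 04. KO pieces varied little among themselves, while KO+NM1 ran over a wide range (4.81 ± 9.24, SD, n = 4) set by piece 01. The 3 genes kept similar proportions where they were well counted. Cd3g counts were 1.09, 1.09 and 1.34 times those of Cd3e in KO and 1.24 times in KO+NM1 piece 01, and Cd3d counts were 0.598, 0.486 and 0.57 times in KO and 0.776 times in piece 01.

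CD4 and CD8 are the coreceptors that bind MHC class II and class I on the cell facing the T cell. Neither CD4 nor CD8α, the product of Cd8a, is confined to T cells, since some dendritic cells carry them, whereas CD8β, the product of Cd8b1, marks T cells with the αβ form of the coreceptor. Cd4 (ENSMUSG00000023274) lies on chromosome 6 at 124864692 to 124888221, and Cd8b1 (ENSMUSG00000053044, 71322788 to 71337494) and Cd8a (ENSMUSG00000053977, 71373427 to 71379173) are neighbours on the same chromosome.

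Cd4 was at 70.6, 48.3 and 41.8 CPM in KO, at 92.3 CPM in KO+NM1 piece 01 and at 0.936, 0.642 and 1.97 CPM in pieces 02 to 04. Piece 01 was the highest of all 7, so the groups overlapped and the log2 fold change was 1.16 (SE 1.63, adjusted p = 0.58). Without piece 01 it was 5.35 (SE 0.39, adjusted p = 4.29e-05 by edgeR), and the pooled ratio was 44.1 (35.6 to 55.4). Unlike the CD3 chains, Cd4 kept 13 to 48 reads in each of pieces 02 to 04.

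Cd8a had 26.1, 21.2 and 33.3 CPM in KO, 26.9 CPM in KO+NM1 piece 01 and 0, 0.445 and 0.0411 CPM in pieces 02 to 04. Piece 01 fell inside the KO range. Over all pieces the log2 fold change was 1.97 (SE 1.86, adjusted p = 0.414), and without piece 01 it was 7.33 (SE 0.87, adjusted p = 0.000147 by edgeR), with a pooled ratio of 186 (101 to 389).

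Cd8b1 had 7.2, 5.63 and 6.37 CPM in KO, 6.93 CPM in KO+NM1 piece 01 and 0.0407, 0.148 and 0 CPM in pieces 02 to 04. It followed Cd8a, again with piece 01 inside the KO range, at a log2 fold change of 1.83 (SE 1.65, adjusted p = 0.387) with piece 01 and 6.54 (SE 0.78, adjusted p = 9.84e-05 by edgeR) without it. There were 3.62, 3.77 and 5.23 reads of Cd8a for each read of Cd8b1 in KO and 3.88 in KO+NM1 piece 01, so that the ratio in piece 01 was within the KO range. The balance of coreceptor to CD3 was not. Cd4 had 3.06, 2.42 and 1.75 reads per read of Cd3e in KO and 14.9 in KO+NM1 piece 01.

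**Figure D2:**
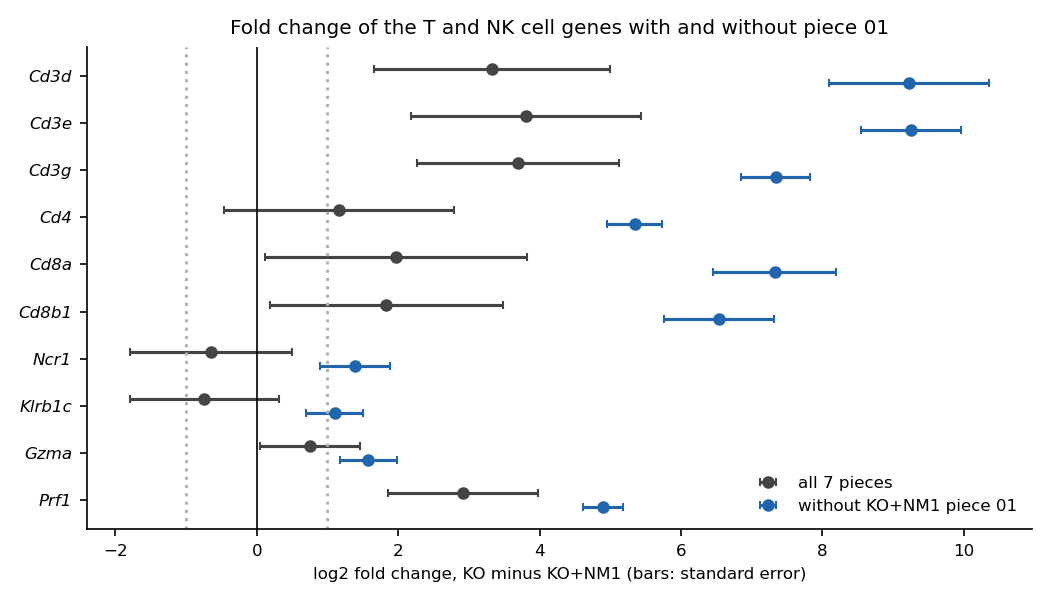
Log2 fold change, KO minus KO+NM1, of the 10 genes with all 7 pieces (grey) and without KO+NM1 piece 01 (blue), with bars for the standard error and dotted lines at a 2-fold change. Every blue point lies to the right of its grey point, and Ncr1 and Klrb1c move from below 0 to above 0.

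Ncr1 encodes NKp46, an activating receptor found on NK cells and some innate lymphoid cells, and Klrb1c encodes NK1.1, a C-type lectin-like receptor of NK cells. Ncr1 (ENSMUSG00000062524) lies on chromosome 7 at 4337724 to 4345164 and Klrb1c (ENSMUSG00000030325) on chromosome 6 at 128778485 to 128789215, within a cluster of related Klr genes. Reads shared between such relatives can be split or dropped in counting, so the level of Klrb1c is less certain than that of Ncr1. Reads from the Balb/c hosts were aligned to GRCm38, and strain differences in this cluster were not examined.

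Ncr1 was at 2.2, 5.39 and 5.22 CPM in KO, at 22.3 CPM in KO+NM1 piece 01 and at 2.24, 0.741 and 1.48 CPM in pieces 02 to 04. Piece 01 held 5.23 times the KO mean. KO piece 01 lay just under KO+NM1 piece 02, so Ncr1 was the 1 gene of the 10 whose groups overlapped even with piece 01 left out. The log2 fold change was -0.65 (SE 1.15, adjusted p = 0.669) over all pieces and turned to 1.39 (SE 0.49, adjusted p = 0.0387 by edgeR) without piece 01. The pooled ratio of KO to pieces 02 to 04 was 2.78 (2.23 to 3.48), far under that of the CD3 chains.

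Klrb1c was at 0.8, 1.32 and 1.75 CPM in KO, at 6.97 CPM in KO+NM1 piece 01 and at 0.651, 0.593 and 0.411 CPM in pieces 02 to 04. It shared the order of Ncr1, with piece 01 at 5.4 times the KO mean, a log2 fold change of -0.74 (SE 1.05, adjusted p = 0.589) over all pieces and 1.10 (SE 0.40, adjusted p = 0.0414 by edgeR) without piece 01. The pooled ratio was 2.35 (1.62 to 3.49). Ncr1 had 2.75, 4.08 and 2.98 reads per read of Klrb1c in KO, 3.2 in KO+NM1 piece 01 and 3.44, 1.25 and 3.6 in pieces 02 to 04, where Klrb1c had 10 to 16 reads.

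Against Cd3e, Ncr1 changed place between the pieces. There were 0.0954, 0.27 and 0.218 reads of Ncr1 per read of Cd3e in KO, 3.6 in KO+NM1 piece 01, and 55 against 1 and 15 against 1 reads in KO+NM1 pieces 02 and 03. Piece 04 had 36 reads of Ncr1 and 0 of Cd3e.

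Gzma encodes granzyme A, a serine protease of cytotoxic granules, and Prf1 encodes perforin, the pore former that lets granzymes into the target cell. Gzma (ENSMUSG00000023132) lies on chromosome 13 at 113093825 to 113100981 and Prf1 (ENSMUSG00000037202) on chromosome 10 at 61297833 to 61304680. Both are made by NK cells and by cytotoxic T cells.

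Prf1 was at 29.0, 22.7 and 27.8 CPM in KO, at 11.5 CPM in KO+NM1 piece 01 and at 1.02, 0.445 and 0.946 CPM in pieces 02 to 04. All KO pieces lay above all KO+NM1 pieces, as with the CD3 chains. The log2 fold change was 2.92 (SE 1.06, adjusted p = 0.0592) with all pieces, and 4.90 (SE 0.28, adjusted p = 1.71e-05 by edgeR) without piece 01, with a pooled ratio of 32.2 (24.8 to 42.6).

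Gzma was at 3.87, 7.26 and 9.18 CPM in KO, at 9.81 CPM in KO+NM1 piece 01 and at 2.85, 1.93 and 1.44 CPM in pieces 02 to 04. It moved less than Prf1, with a log2 fold change of 0.75 (SE 0.71, adjusted p = 0.407) over all pieces, 1.58 (SE 0.40, adjusted p = 0.01 by edgeR) without piece 01 and a pooled ratio of 3.25 (2.71 to 3.93). Prf1 had 7.51, 3.12 and 3.03 reads per read of Gzma in KO, 1.17 in KO+NM1 piece 01 and 0.357, 0.231 and 0.657 in pieces 02 to 04. The balance of the 2 granule genes did not overlap between the tumors, and the share of other gene pairs that do so was not counted.

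With all pieces, 4 of the 10 genes (the CD3 chains and Prf1) had every KO piece above every KO+NM1 piece, where 30.5% of all genes tested did. Without KO+NM1 piece 01 it was 9 of the 10, all but Ncr1, where 43.0% of all genes did and 78.2% separated in one direction or the other (57.0% with all pieces). To compare genes with each other, CPM was divided by the length of the merged exons. Per kilobase, the KO mean level was 13.3 CPM for Cd4, 10.3 for Prf1, 8.06 for Cd3g, 7.39 for Cd8a, 6.83 for Cd3d, 6.73 for Gzma, 5.47 for Cd3e, 4.32 for Cd8b1, 2.77 for Ncr1 and 0.436 for Klrb1c. Neighbours in this order overlapped over the 3 KO pieces, except at its lower end, where Cd3e, Cd8b1, Ncr1 and Klrb1c did not overlap from one to the next. In KO+NM1 piece 01 the order was another. Cd4 again led at 22.9 CPM per kilobase, and Ncr1 (14.5) and Gzma (9.75) came next, ahead of Cd8a (7.4), Cd8b1 (4.67), Prf1 (4.45), Cd3d (2.65), Klrb1c (2.35), Cd3g (2.34) and Cd3e (1.52). In pieces 02 to 04, Gzma had the highest mean at 2.06 CPM per kilobase, followed by Ncr1 at 0.965, and Cd3d and Cd3e were the lowest at 0.00747 and 0.00736.

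Ptprc encodes CD45, a surface phosphatase of all leukocytes, and was at 188, 185 and 218 CPM in KO, 587 CPM in KO+NM1 piece 01 and 19.5, 18 and 22.4 CPM in pieces 02 to 04. Leukocyte transcripts as a whole therefore were highest in KO+NM1 piece 01 and lowest in pieces 02 to 04, and each gene was also counted per 1000 reads of Ptprc. On that scale the CD3 chains summed to 330, 278 and 320 reads in KO, 31.8 in KO+NM1 piece 01 and 16.7, 11 and 1.83 in pieces 02 to 04. Piece 01 was highest of its tumor and well below every KO piece. The mean difference, KO minus KO+NM1, was 4.71 on the log2 scale. The leukocyte mix behind Ptprc was not the same in every piece. Cd79a, a B cell gene, had 2190 reads per 1000 of Ptprc in piece 01, 13.1 to 66.5 in KO and 45.9 to 266 in pieces 02 to 04. No test was run on the ratios.

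The coreceptors kept the same order per Ptprc read. Cd4 had 376, 261 and 192 reads per 1000 in KO, 157 in KO+NM1 piece 01 and 48, 35.6 and 88.1 in pieces 02 to 04. Cd8a had 139, 115 and 153 in KO, 45.9 in piece 01 and 0, 24.7 and 1.83 in pieces 02 to 04.

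Ncr1 and Klrb1c went the other way, but this pair does not stand for NK receptors in general. The wider list was not counted per Ptprc read. Its pooled ratios of KO to KO+NM1 pieces 02 to 04 can be set beside 9.82 for Ptprc. For its most abundant genes they were higher, at 34.0 for Klrk1, 17.1 for Il2rb, 34.0 for Sh2d2a and 34.7 for Slamf7. Others of that list lay below, such as Klra4 at 2.07. Ncr1 had 11.7, 29.1 and 23.9 reads per 1000 of Ptprc in KO, 38.0 in KO+NM1 piece 01 and 115, 41.1 and 66.1 in pieces 02 to 04, so that all 4 KO+NM1 pieces lay above all KO pieces. This separation was lost when reads were counted per 1000 of 5 leukocyte genes together, at 2.67, 6.42 and 5.46 in KO and 6.28, 13.4, 6.0 and 9.34 in KO+NM1. Klrb1c had 4.26, 7.14 and 8.02 in KO, 11.9 in piece 01 and 33.4, 32.9 and 18.3 in pieces 02 to 04, without overlap on either scale. The share of all genes that separate on these scales was not counted. As CPM, 57.0% of all genes tested did so with all pieces, in one direction or the other. Gzma was low in piece 01 (16.7) and KO (20.6, 39.3 and 42.1) and higher in pieces 02 to 04 (146, 107 and 64.2), though per 1000 of the 5 leukocyte genes piece 04 (9.08) fell below KO piece 03 (9.61). Prf1 was highest in KO (155, 122 and 127), with 19.6 in piece 01 and 52.2, 24.7 and 42.2 in pieces 02 to 04.

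**Figure D3:**
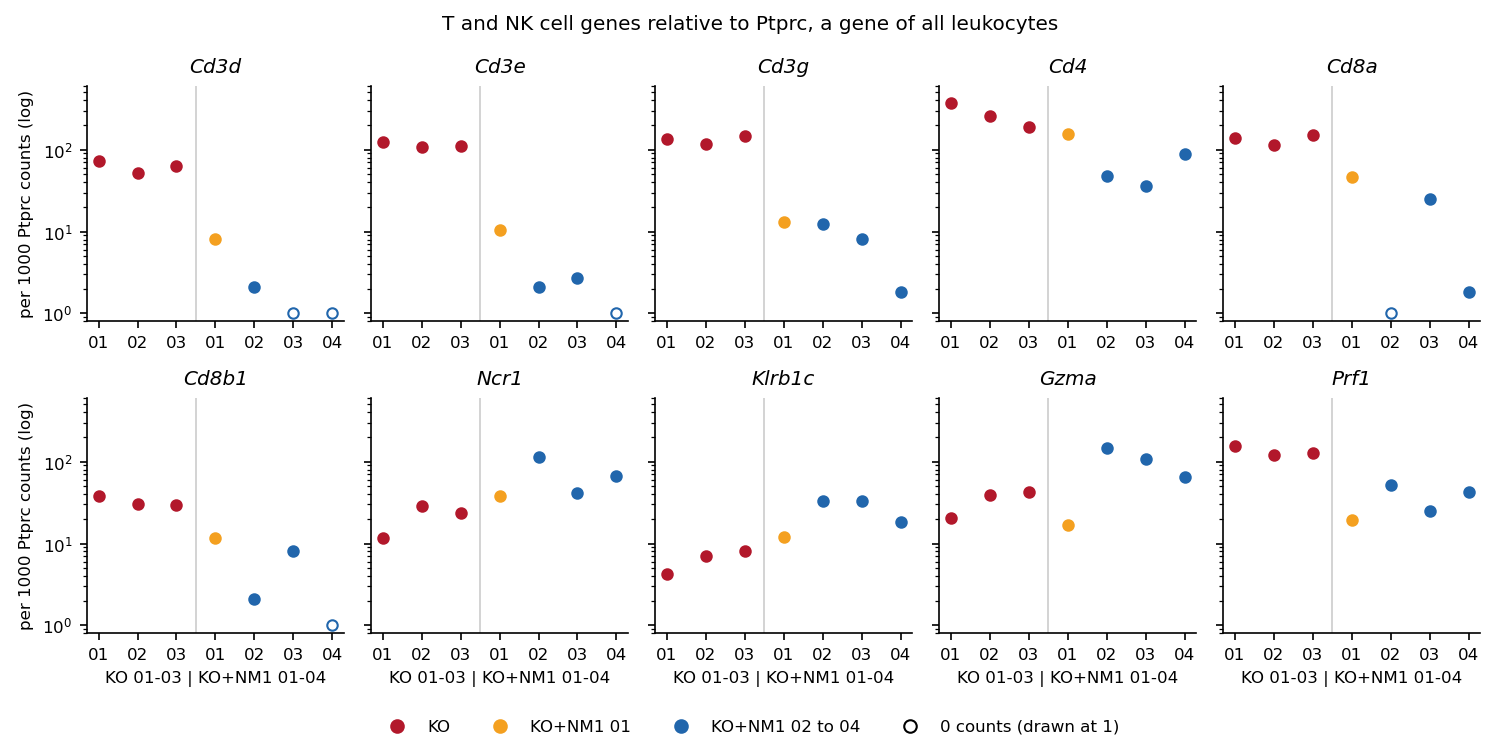
Reads of each of the 10 genes per 1000 reads of Ptprc (log axis) in each piece, coloured as KO (red), KO+NM1 piece 01 (orange) and KO+NM1 pieces 02 to 04 (blue), with counts of 0 as open circles at 1. KO is highest for the CD3 genes, the coreceptors and Prf1, and every KO+NM1 piece lies above KO for Ncr1 and Klrb1c, which for Ncr1 does not hold against 5 leukocyte genes together.

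The other genes of the T and NK cell programs were read from 6 lists of 81 genes. Of the 73 that passed the filter, 12 were called higher in KO and 4 lower with all pieces. Without KO+NM1 piece 01, 57 of 69 were called higher and 4 lower. Each list's count is set beside the 17.1% and 21.7% of all genes called higher in KO in the same fits. For genes lower in KO those shares were 20.3% and 25.1%.

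Of the 8 genes for the constant regions of the T cell receptor and CD3ζ, 1 was called with all pieces. Trac, the constant region of the α chain, was at 12.4, 10.3 and 14.2 CPM in KO, 1.93 CPM in KO+NM1 piece 01 and 0.692, 0.198 and 0.37 CPM in pieces 02 to 04 (log2 fold change 3.92, SE 0.69, adjusted p = 0.00432 by edgeR). The β chain constant regions Trbc1 and Trbc2 did not pass, with log2 fold changes of 1.0 (adjusted p = 0.553) and 2.46 (adjusted p = 0.0814). Trbc1 was higher in KO+NM1 piece 01, at 19.1 CPM, than in KO, at 7.37, 10.8 and 13.8 CPM. Reads of Trac were 0.513, 0.358 and 0.425 of the reads of both β constant regions in KO and 0.0654 in piece 01. Without piece 01, 6 of the 7 tested were called higher in KO. Cd247, which encodes CD3ζ and is also used by NK cells, was the exception, at 4.5 to 8.16 CPM in KO, 10.4 CPM in piece 01 and 4.73 to 8.1 CPM in pieces 02 to 04. Trbc1 and Trbc2 are near-identical copies, so reads can be split or dropped between them.

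The 17 genes of T cell signalling and surface proteins had a median log2 fold change of 1.81, and 3 were called higher in KO with all pieces. Those were Themis, Ctla4 and Trat1, named because they were called. Of the most abundant, Lck, the kinase that starts receptor signalling, was at 33.7, 35.9 and 40.1 CPM in KO, 75.2 CPM in KO+NM1 piece 01 and 2.03, 2.37 and 1.44 CPM in pieces 02 to 04. Cd6, a receptor of T cells, followed the CD3 pattern with 24.9, 20.1 and 29.3 CPM in KO, 6.49 CPM in piece 01 and at most 0.123 CPM in pieces 02 to 04. Cd2, an adhesion receptor of T and NK cells, was at 87.0 CPM in piece 01 and 12.2 to 14.3 CPM in KO. Lcp2, an adaptor that other blood cells also use, was at 57.9 to 72.9 CPM in KO, 51.8 CPM in piece 01 and 4.45 to 6.43 CPM in pieces 02 to 04. All 17 were called higher in KO without piece 01.

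The transcription factors split in direction. Of 11 tested, 0 were called higher in KO with all pieces and 3 lower, and without piece 01 it was 7 higher and 3 lower. Of all genes, 20.3% and 25.1% were called lower in those fits, so 3 of 11 was near the share of all genes. Tcf7, a factor of T cell development, was at 77.3, 65.4 and 58.8 CPM in KO, 55.7 CPM in KO+NM1 piece 01 and 2.89, 2.08 and 5.51 CPM in pieces 02 to 04 (log2 fold change 2.02, adjusted p = 0.175). The 3 lower in KO were Gata3, Zbtb7b and Zbtb16. Gata3 was at 11.3, 21.6 and 10.4 CPM in KO and 46.8, 126, 109 and 162 CPM in KO+NM1 (log2 fold change -2.94, SE 0.44, adjusted p = 0.00298 by edgeR). Gata3 and Zbtb7b are also made outside the blood lineage, and both were highest in KO+NM1 pieces 02 to 04. Which cells made these transcripts was not tested. Ikzf3, a factor of B and T cells, was at 162 CPM in piece 01 and 16.9 to 25.7 CPM in KO.

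The NK cell receptors and adaptors held 22 genes, of which 19 were tested and 4 called higher in KO with all pieces. Klrc1, Klrc2 and Klre1, named because they were called, were among those 4. Klrk1, which encodes NKG2D, an activating receptor of NK cells and CD8 T cells, was at 46.5, 50.6 and 56.2 CPM in KO, 21.4 CPM in KO+NM1 piece 01 and 1.71, 1.63 and 1.19 CPM in pieces 02 to 04 (log2 fold change 2.97, SE 1.04, adjusted p = 0.0531). Il2rb, a receptor chain for IL-2 and IL-15, was at 42.7, 36.7 and 46.6 CPM in KO, 62.2 CPM in piece 01 and 1.93 to 2.73 CPM in the rest. Slamf7 and Sh2d2a had the same order, with 25.5 and 36.6 CPM in piece 01. In all, 17 of the 22 were highest in piece 01, and 14 of 16 tested were called higher in KO when it was left out. Many of these receptors belong to families of close relatives whose reads are hard to assign.

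Of 14 cytotoxic and effector genes, 10 were tested and 4 called higher in KO with all pieces, namely Gzmb and, named because they were called, Gzmk, Fasl and Ifng. Gzmb, granzyme B, was at 35.3, 33.4 and 56.1 CPM in KO, 2.15 CPM in KO+NM1 piece 01 and 1.46, 1.14 and 1.73 CPM in pieces 02 to 04 (log2 fold change 4.67, SE 0.29, adjusted p = 0.000229 by edgeR). Here piece 01 lay near the other pieces of its tumor. Ifng, the cytokine interferon-γ of activated T and NK cells, was at 7.03, 7.47 and 10.2 CPM in KO, 0.474 CPM in piece 01 and 0.0494 to 0.164 CPM in the rest, with piece 01 at 4.82 times the mean of pieces 02 to 04 (log2 fold change 5.35, SE 0.66, adjusted p = 0.00127 by edgeR). The ratio of Gzmb to Gzma reads was 9.13, 4.59 and 6.11 in KO and 0.219 in piece 01, the lowest of the 7. Nkg7, a granule protein, was at 30.4 to 41.7 CPM in KO, 20.4 CPM in piece 01 and 1.14 to 1.67 CPM in pieces 02 to 04. Ccl5, a chemokine of effector lymphocytes, was at 67.1 to 96.9 CPM in KO and 143 CPM in piece 01.

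Receptors of lymphocyte homing and residence summed to 81.9 to 93.2 CPM in KO, 796 CPM in KO+NM1 piece 01 and 107 to 153 CPM in pieces 02 to 04. S1pr1 alone took 146, 117 and 101 CPM of the sum in pieces 02 to 04. Ccr7, a chemokine receptor with which naive lymphocytes enter lymph nodes and which B cells also carry, was at 161 CPM in KO+NM1 piece 01 and at most 4.56 CPM elsewhere. Cxcr6, a receptor of effector and resident lymphocytes, was at 28.4, 19.4 and 27.2 CPM in KO, 17.7 CPM in piece 01 and 0.203 to 0.617 CPM in the rest. With all pieces 0 of 8 were called higher in KO and 1 lower, S1pr1 (log2 fold change -2.49, SE 0.21, adjusted p = 0.000501 by edgeR), a receptor for exit from tissue that endothelial cells also make. Without piece 01, 6 were called higher and S1pr1 still lower.

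The variable (V) segments of the T cell receptor gave a separate reading of the same pieces and were looked at after the values of the 10 genes had been seen. In a T cell a V segment is joined to the rest of a receptor chain, and different clones can use the same segment. Of 144 annotated segments, 18, 20 and 25 had at least 3 reads in KO pieces 01 to 03, 15 in KO+NM1 piece 01 and 1, 1 and 2 in pieces 02 to 04. The reads on all segments numbered 491, 345 and 531 in KO, 194 in piece 01 and 64, 51 and 73 in pieces 02 to 04. In KO, 13 segments had at least 3 reads in all 3 pieces, and 10 of the 13 had 0 reads in KO+NM1 pieces 02 to 04.

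The most used segment in each KO piece was Trbv1, with 153, 50 and 97 reads, or 31.2, 14.5 and 18.3% of the V reads. Trbv19 had 37, 33 and 54 reads in KO and Trbv13-1 had 42, 22 and 34, and both had 0 in all 4 KO+NM1 pieces. In KO+NM1 piece 01 the most used segment was Trgv2, of the γ chain, with 42 reads (21.6%). Of the 15 segments with at least 3 reads there, 9 also had at least 3 reads in 1 or more KO pieces, and 6 had at most 2 reads in each KO piece. In pieces 02 to 04 nearly all V reads fell on Trdv4, with 62, 47 and 68 reads (96.9, 92.2 and 93.2%), a segment with 40 reads in piece 01 and 0, 0 and 4 in KO. Leaving Trdv4 out, 2, 4 and 5 V reads remained in pieces 02 to 04. Segments resemble one another and gene-level counts do not show whether a segment was joined, so these are counts on annotated segments and not a count of clones.

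**Figure D4:**
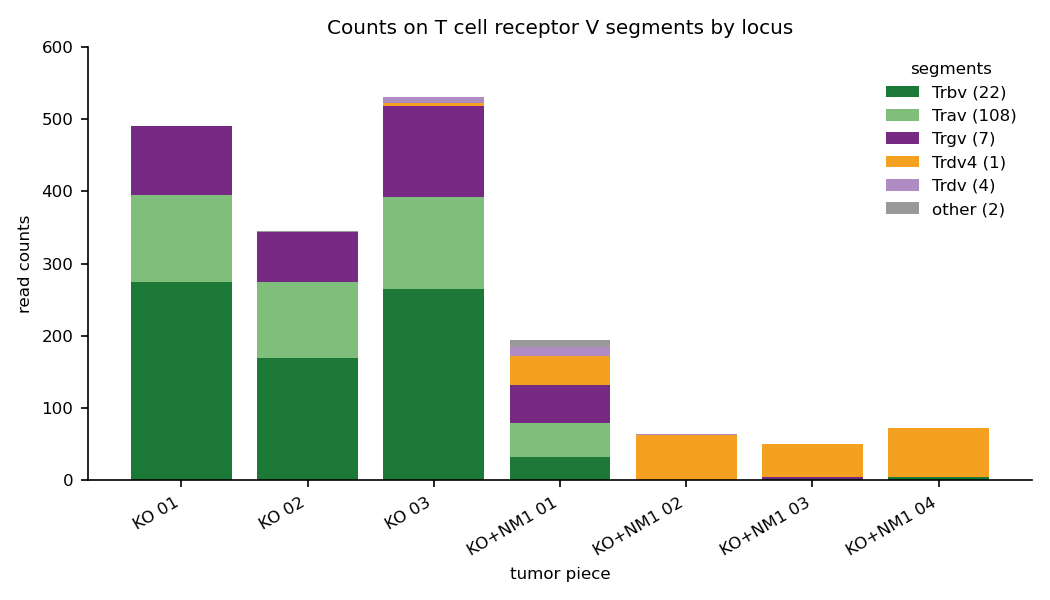
Reads on T cell receptor V segments in each piece, stacked by locus, with the number of annotated segments in brackets and Trdv4 drawn apart in orange. The KO bars (491, 345 and 531 reads) are mostly Trbv, Trav and Trgv, KO+NM1 piece 01 (194 reads) holds every locus, and pieces 02 to 04 (64, 51 and 73 reads) are nearly all Trdv4.

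Likeness of pattern was described by Pearson's r over the 7 libraries between log2 CPM and the mean standardised profile of the 3 CD3 chains. The points share their libraries and fall into clusters of pieces. By this measure r was 0.99 for Prf1, 0.98 for Cd8b1, 0.96 for Cd8a, 0.95 for Cd4, 0.86 for Gzma, 0.63 for Ncr1 and 0.59 for Klrb1c, with 0.9 for Ptprc and 0.41 for Cd79a, a B cell gene. The 5 closest protein-coding genes outside the lists, among 13583 ranked, were Usb1 (0.9989), Usp42 (0.9982), Donson (0.9978), Psmb8 (0.9969) and Nin (0.9967). Psmb8, a subunit of the immunoproteasome, was at 364, 372 and 385 CPM in KO, 283 CPM in KO+NM1 piece 01 and 99.8, 78.0 and 78.6 CPM in pieces 02 to 04. Its span over the pieces was far smaller than that of the CD3 genes, since r takes no account of size.

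Some markers of other cell types moved with the 10 genes and others did not, and their part in the results was not tested. The 8 macrophage genes summed to 3100 to 3540 CPM in KO, 2480 CPM in KO+NM1 piece 01 and 663 to 933 CPM in pieces 02 to 04, and 6 of 8 were called higher in KO with all pieces. Cd14, a receptor for bacterial lipopolysaccharide, was the 1 gene called lower in KO (log2 fold change -1.77, SE 0.41, adjusted p = 0.0128 by edgeR). Of the 2480 CPM in piece 01, Lyz2, a lysozyme that other myeloid cells also make, took 1900 CPM, its highest level of the 7 pieces. C1qa, a complement component of macrophages, was at 851, 856 and 977 CPM in KO, 143 CPM in piece 01 and 94.2 to 124 CPM in the rest, and Adgre1 and Mrc1, chosen after their values were seen, were lowest in piece 01 at 18.2 and 32.2 CPM. Zbtb46 was the 1 gene of the 6 dendritic cell markers called lower in KO, and that list summed to 77.5 to 104 CPM in KO, 159 CPM in piece 01 and 40.5 to 42.8 CPM in pieces 02 to 04. Itgax, which encodes CD11c, was at 57.5, 28.6 and 31.3 CPM in KO, 24.4 CPM in piece 01 and 2.96 to 6.14 CPM in pieces 02 to 04. The share of Cd4 and Cd8a reads that came from such cells cannot be told from bulk counts.

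Lymphoid tissue markers were highest in KO+NM1 piece 01. All 8 B cell genes were highest there, with Cd79a, a signalling chain of the B cell receptor, at 1290 CPM and at most 12.3 CPM in any other piece. The 4 plasma cell and immunoglobulin genes summed to 3580 CPM in piece 01, 70 to 123 CPM in KO and 206 to 266 CPM in pieces 02 to 04. Of the sum in pieces 02 to 04, Ighm alone took 264, 238 and 204 CPM. Igkc was lower in those pieces (1.67, 4.59 and 1.36 CPM) than in KO (4.7, 16.4 and 9.77 CPM). Glycam1, a mucin-like glycoprotein of high endothelial venules, was at 2580 CPM in piece 01 and at most 1.04 CPM elsewhere, with 0 reads in KO piece 02. Ccl21a, a chemokine that draws CCR7-bearing cells into lymph nodes, was at 448 CPM in piece 01, 19.7, 36.8 and 20.0 CPM in KO and 1.04 to 7.52 CPM in the rest. Cxcl13, a chemokine that draws B cells into follicles, was at 379 CPM in piece 01 and also present in KO at 46.4, 137 and 146 CPM, with 2.1 to 4.56 CPM in pieces 02 to 04.

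**Figure D5:**
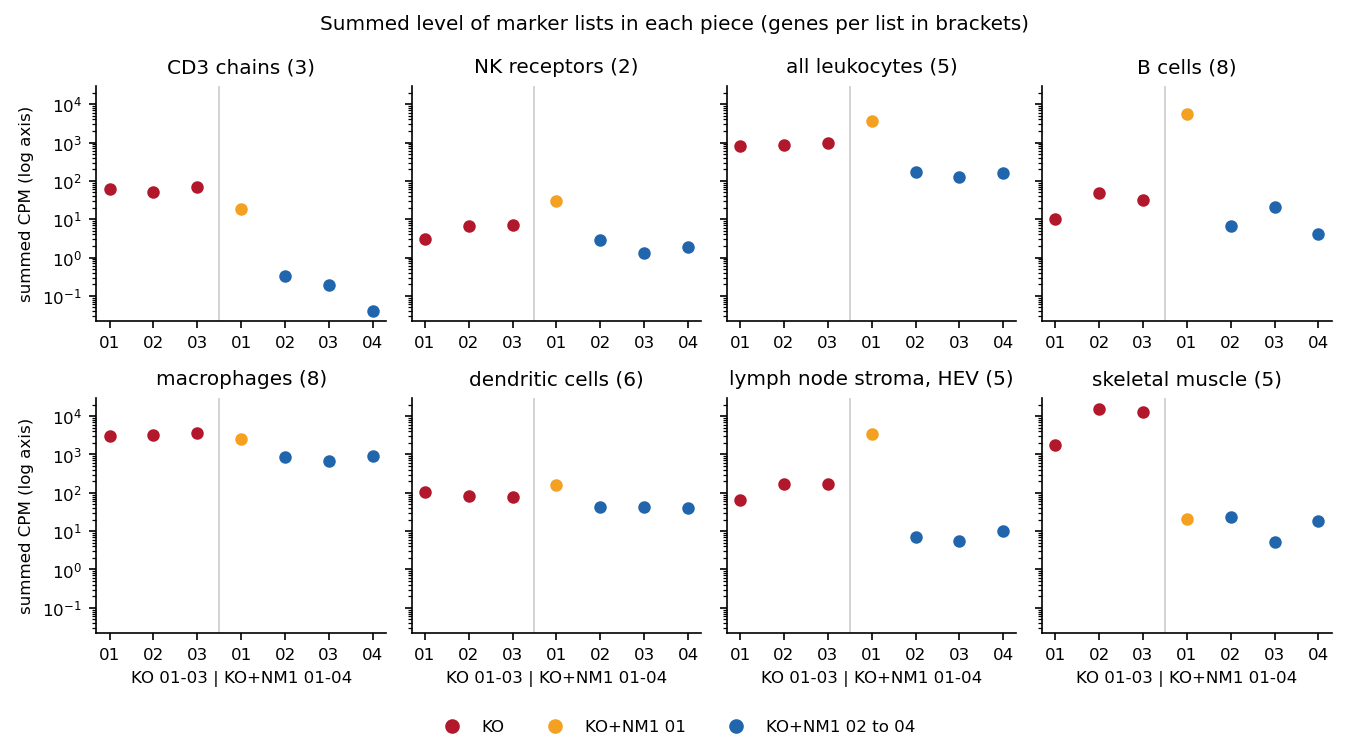
Summed CPM (shared log axis) of marker lists in each piece, with KO in red, KO+NM1 piece 01 in orange and KO+NM1 pieces 02 to 04 in blue and the number of genes in brackets. CD3 chains fall from KO through piece 01 to pieces 02 to 04, as does the macrophage sum, of which Lyz2 makes 1900 of 2480 CPM in piece 01, while B cell and lymph node genes peak in piece 01 and muscle genes are high in KO alone.

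Some markers of other tissues differed between the groups as well. Bulk counts cannot place these transcripts inside or around the tumor, and the injected cells were themselves fibroblasts. Muscle genes summed to 1820 to 15700 CPM in KO and at most 23.5 CPM in KO+NM1, white adipocyte genes to 1.8 to 26.4 CPM in KO, 798 CPM in KO+NM1 piece 01 and 4800 to 6790 CPM in pieces 02 to 04, and endothelial genes to 161 to 180 CPM in KO and 878 to 1160 CPM in KO+NM1. Fibroblast genes were lowest in piece 01, at 2220 CPM against 6050 to 12500 CPM in the other pieces. Within KO, muscle genes ran over 1820 to 15700 CPM and the CD3 sum over 51.4 to 69.8 CPM. Keratinocyte genes reached 1210 CPM in KO piece 02 and 3.86 CPM in KO piece 03, where the CD3 sums were 51.4 and 69.8 CPM. Any link between tissue content and the CD3 level was not tested. Neutrophil genes summed to 26.8 to 33.0 CPM in KO, 85.5 CPM in piece 01 and 7.52 to 10.4 CPM in pieces 02 to 04, and mast cell genes to 19.1 to 42.7, 24.4 and 73.5 to 187 CPM.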

How the data were processed

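Bulk RNA-seq of 7 tumor pieces (3 KO, 4 KO+NM1) was analysed from counts deposited by the authors, raw read counts per Ensembl gene for 46603 genes. Per the submitters' processing notes and the methods, reads were trimmed with Trimmomatic 0.36, checked with FastQC, aligned to GRCm38 with HISAT2 2.0.4, sorted with SAMtools 0.1.19 and counted with HTSeq. The annotation release and strand option are not given in the sources used here, so reads of an antisense partner cannot be told apart. GENCODE M21 gave symbols to 46005 genes.

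Genes were filtered with filterByExpr (minimum count 10), scaled by TMM and compared with edgeR 4.0.16 (quasi-likelihood test, Benjamini-Hochberg adjustment) in R 4.3.3, without a replicate block. Calls had an adjusted p below 0.05 and a log2 fold change of 1 or more in size. The biological coefficient of variation was 46.7%. DESeq2 1.42.0 was an alternative, as were other scalings and filters, the replicate number as a block, and fits without each library. The fit was first checked on simulated data. Intervals are exact binomial at 95% and cover counting error only. Chi-square over degrees of freedom was 35.2 or more for every pair of pieces in a group, so none were duplicates.

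The 10 genes and the lists were chosen with earlier results of these data known. From each list at most 4 genes with the highest mean CPM were named, and any gene called against most of its list. Genes named for another reason, marked as such, and V segments were chosen after their values were seen. A few genes this would name are not reported here.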

Additional observations from a re-analysis of the deposited data

Results flagged for a closer look

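KO+NM1 piece 01 was far above the other 3 KO+NM1 pieces in all 10 genes. The gap from piece 01 to the next piece, as a share of the whole range of the 4 pieces, was 0.992 for Cd3d, 0.992 for Cd3e, 0.973 for Cd3g, 0.985 for Cd4, 0.983 for Cd8a, 0.979 for Cd8b1, 0.931 for Ncr1, 0.963 for Klrb1c, 0.832 for Gzma and 0.948 for Prf1. Each passed Dixon's 95% critical value for 4 samples, Gzma only narrowly. Chance passes it in about 1 in 20 groups, a rate that does not apply here, since piece 01 was set apart before this test. The share of all genes that pass was not counted, so passing cannot be read as particular to these genes. Over the genes tested, the correlation of log2 CPM was 0.855 to 0.861 between piece 01 and pieces 02 to 04. Among pieces 02 to 04 it was 0.977 to 0.986.

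Piece 01 was also high in the summed CPM of 13 lists. The share was 0.954 for receptor constant regions and CD3ζ, 0.992 for T cell signalling proteins, 0.965 for transcription factors, 0.994 for NK cell receptors and adaptors, 0.994 for cytotoxic and effector proteins and 0.933 for homing receptors. Among the lists of other cell types it was 0.987 for all leukocytes, 0.997 for B cells, 0.982 for plasma cells and immunoglobulin, 0.852 for macrophages, 0.981 for dendritic cells, 0.963 for neutrophils and 0.999 for lymph node stroma and high endothelial venules. These 23 values come from the same library and from genes that share cell types, so they are not separate pieces of evidence. In all, 29 values were tested.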

How the results depend on the processing

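The count of the 10 genes called higher in KO was 0 under every setting run except DESeq2 (3 called, and 3 without an adjusted p) and the fits that left out 1 library, which gave 0 to 10, with 10 only without KO+NM1 piece 01. Counts lower in KO stayed at 0. Ncr1, at a log2 fold change of -0.65, turned to 0.51 with the replicate number as a block and to 1.39 without KO+NM1 piece 01, and Klrb1c turned from -0.74 to 1.10 without that piece. Over the fits that left out 1 library, Ncr1 ran from -1.03 to 1.39 and Klrb1c from -1.13 to 1.10. The other 8 genes stayed above 0 in the 12 to 14 alternatives that gave each a value. No value came from at least 10 counts in every library for 6 of the 10 genes, which that filter removed. The replicate numbers did not pair the pieces (same-number correlations 0.0802, 0.102 and -0.0165), and the block gave 0 of the 10 genes and 2437 genes higher and 2493 lower in all, against 2882 and 3424 without it. Of the companion genes, 12 were called higher in KO, 1 when genes needed at least 10 counts in every library, which drops most genes near 0 in 1 tumor, and 6 to 57 when 1 library was left out: 6 without KO piece 01 or 03 and 57 without KO+NM1 piece 01. By adjusted p alone 4345 genes were higher in KO. Library size alone gave 3401 higher and 2977 lower, and upper-quartile scaling 2461 and 3826, shifting the median of all genes by 0.17 and -0.16 on the log2 scale while that of the 10 genes was 1.92 and 1.78. With a prior count of 0.5, 3 of the 5 closest genes stayed among the 5. In KO+NM1 pieces 02 to 04, 4 or 5 of the 10 genes had 3 reads or fewer, so depth limits their fold changes.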
